A study of Caenorhabditis elegans with 2 samples.

Results

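The strongest autosomal intronic regions of DAF-12 chromatin immunoprecipitation were described in whole Caenorhabditis elegans larvae. They were chosen by the pooled signal, the value that the authors gave each region of the list called on both replicates together. The 2000 regions of highest pooled signal were taken, and those on an autosome were kept when the summit, the point of highest signal, lay inside a protein-coding gene. The summit also had to lie in no annotated exon and more than 500 bp from the start of any protein-coding transcript. This left 309 of the 2000 highest regions, or 15.45%, out of 30000 regions in the pooled list. The other classes among the 2000 were 502 autosomal regions within 500 bp of a start, 484 on chromosome X, 443 autosomal intergenic regions and 262 in autosomal exons.

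The animals were L3 larvae of strain OP222, unc-119(ed3) III; wgIs222, obtained from the CGC, in which an inserted transgene supplies DAF-12 fused to eGFP. The labels give 1 group of 2 biological replicates of whole organisms, each with males and females pooled, so no tissue can be assigned to a signal and binding of the untagged protein was not measured. Each list was made against a control alignment, and no control or wild-type sample was analysed here. Read counts are not in the lists. Depth is therefore unknown, and the scale of the signal is not stated. All positions are 1-based in ce11.

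DAF-12 is a nuclear hormone receptor that binds the steroid dafachronic acid. With ligand it promotes reproductive development and the passage from L2 to L3 programmes, and without ligand it acts with the corepressor DIN-1 in dauer formation. Introns of worm genes can hold enhancers, internal promoters and genes for small structured RNAs, and first introns hold many known enhancers.

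Sequences around summits are shown for 6 of the strongest regions on chromosomes II to V that ranked among the 2000 highest of both replicates. They are then shown for 4 regions whose summits lay beside a small nucleolar RNA (snoRNA), small nuclear RNA (snRNA) or microRNA gene. Each run is the RefSeq WBcel235 genome from 50 bases before to 50 bases after the summit, read 5′ to 3′ on the + strand. Capitals mark the hexamer AGTGTG and its variants AGTGCA and AGTGCG, the hexamer AGTACA, all half-sites of the kind described for DAF-12, and the pentamer GAGAG, each on either strand. In the run for pkg-2 and in those for Y111B2A.12, pqn-41, C15F1.5 and dhc-4 none of these motifs was found. The runs of Y43F8C.7 and Y43F8B.2, chosen in the same way but not shown, also held none, and that of pxn-1, not shown, held 1.
Y111B2A.12 (chrIII:12612631-12612731, + strand): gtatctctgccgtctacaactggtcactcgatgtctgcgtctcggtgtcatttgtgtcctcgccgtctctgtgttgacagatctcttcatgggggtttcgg
pqn-41 (chrIII:1925258-1925358, + strand): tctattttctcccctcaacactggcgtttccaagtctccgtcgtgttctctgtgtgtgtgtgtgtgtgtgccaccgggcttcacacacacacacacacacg
lin-42 (chrII:1238076-1238176, + strand): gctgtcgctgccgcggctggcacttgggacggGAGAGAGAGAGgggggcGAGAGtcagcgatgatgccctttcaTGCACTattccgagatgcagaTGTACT
zfp-1 (chrIII:8795842-8795942, + strand): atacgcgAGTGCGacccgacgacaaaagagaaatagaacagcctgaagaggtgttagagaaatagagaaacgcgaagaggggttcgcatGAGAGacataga
pkg-2 (chrIV:8529098-8529198, + strand): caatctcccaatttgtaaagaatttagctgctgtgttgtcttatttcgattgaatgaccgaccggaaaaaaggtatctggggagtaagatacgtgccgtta
nhr-19 (chrII:9603471-9603571, + strand): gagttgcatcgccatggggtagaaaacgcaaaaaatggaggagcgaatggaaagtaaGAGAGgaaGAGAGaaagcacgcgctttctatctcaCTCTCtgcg
ulp-4 (chrII:8130938-8131038, + strand): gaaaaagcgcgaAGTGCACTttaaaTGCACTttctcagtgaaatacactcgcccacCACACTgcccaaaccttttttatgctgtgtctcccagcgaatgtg
C15F1.5 (chrII:6968533-6968633, + strand): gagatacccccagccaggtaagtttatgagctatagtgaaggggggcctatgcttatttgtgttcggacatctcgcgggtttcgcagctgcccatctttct
dhc-4 (chrIII:10989606-10989706, + strand): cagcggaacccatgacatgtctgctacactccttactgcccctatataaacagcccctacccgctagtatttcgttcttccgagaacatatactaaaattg
K01F9.2 (chrIII:8874094-8874194, + strand): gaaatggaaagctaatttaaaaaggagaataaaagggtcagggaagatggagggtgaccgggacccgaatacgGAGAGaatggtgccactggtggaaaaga

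Among these runs, lin-42 had the most matches, 7, of which 5 were overlapping or separate copies of GAGAG. The run for ulp-4 had 4, in which AGTGCA and its reverse complement overlap. The run for pqn-41 holds a stretch of alternating GT and one of alternating CA.

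The 5 highest pooled signals were in introns of Y111B2A.12, pqn-41, lin-42, zfp-1 and ulp-4. In an intron of Y111B2A.12, a gene with only a sequence name, the region at chrIII:12612681 had a signal of 42.7 in replicate 1 and 41.4 in replicate 2. In pqn-41, which encodes a glutamine- and asparagine-rich protein needed for the death of the male linker cell, the region at chrIII:1925308 had 29.5 in replicate 1 and 33.5 in replicate 2. The lin-42 region at chrII:1238126, in the gene of the worm Period homologue that times larval development, had 33.1 in replicate 1 and 29.1 in replicate 2. In these 3 regions the replicates were close, and neither was the higher in all of them. In zfp-1, which encodes a zinc finger protein of the AF10 family that acts in chromatin, the region at chrIII:8795892 had 31.1 in replicate 1 and 23.8 in replicate 2. The fifth region was unequal between replicates: in ulp-4, which encodes a SUMO protease, it had 36.9 in replicate 1 and 10.9 in replicate 2. In a gene known only as Y71G12B.31, the region of sixth highest signal had 16.1 in replicate 1 and 22.9 in replicate 2, and it lay in an intron of only 73 bp.

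**Figure D1:**
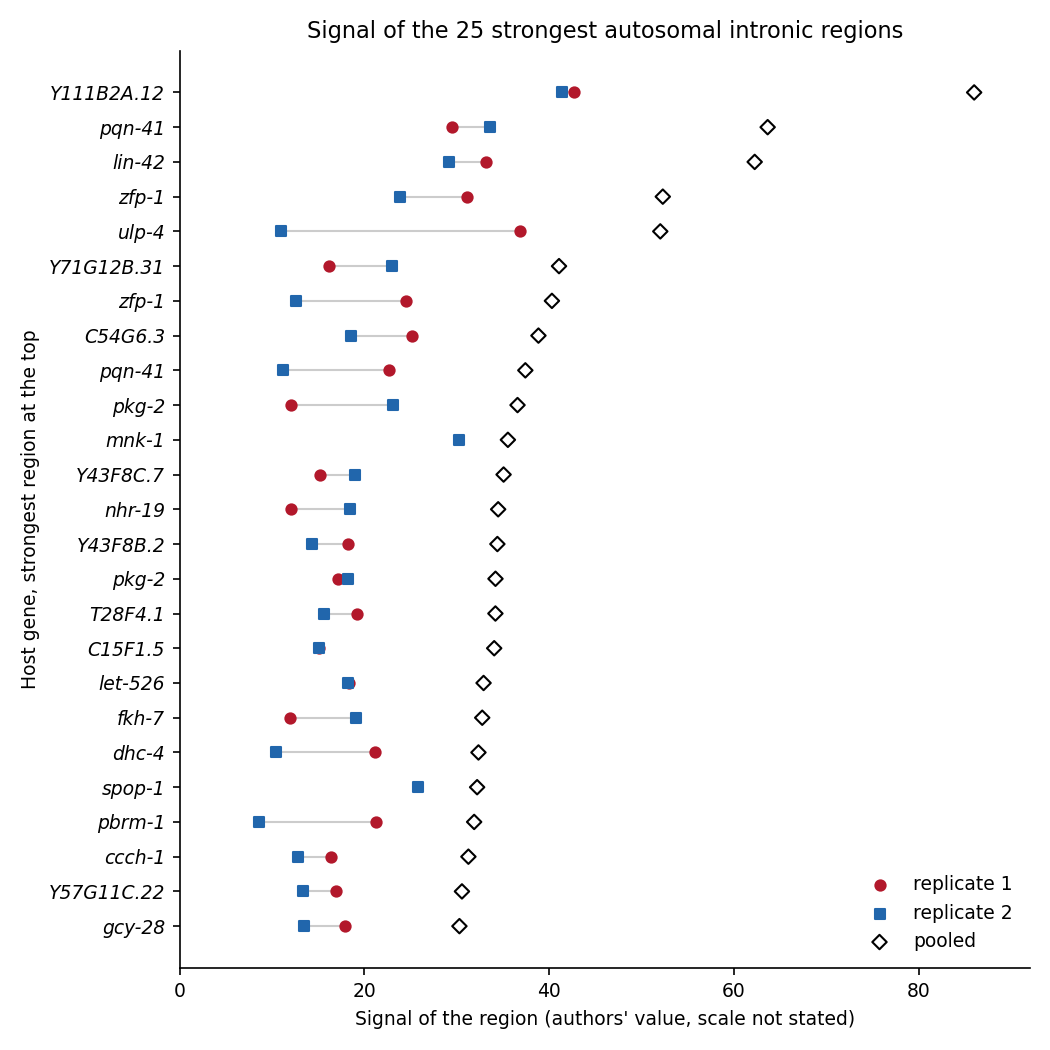
Signal of the 25 strongest autosomal intronic regions by host gene, strongest at the top, as the authors' value in replicate 1 (circles), replicate 2 (squares) and the pooled list (open diamonds). Both replicates have a symbol for 23 of the 25, and the regions of mnk-1 and spop-1 have none for replicate 1.

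Other hosts of the 25 strongest regions encode proteins of varied function. The region in let-526, which encodes an ARID subunit of the SWI/SNF complex, had 18.3 in replicate 1 and 18.2 in replicate 2. The region in pbrm-1, the polybromo subunit of such a complex, had 21.3 in replicate 1 and 8.61 in replicate 2. In fkh-7, a forkhead transcription factor gene, the strongest region had 11.9 in replicate 1 and 19.03 in replicate 2, and in gcy-28, a receptor guanylyl cyclase gene, the region had 17.9 in replicate 1 and 13.4 in replicate 2. In mnk-1, which encodes a kinase that phosphorylates a translation initiation factor, the region at chrII:10552141 had 30.2 in replicate 2 and no region in replicate 1 within 100 bp, although it is an IDR peak. IDR peaks are the authors' stricter list by irreproducible discovery rate, which compares the rank of a region in each replicate. The other hosts in the 25 were C54G6.3, pkg-2, Y43F8C.7, nhr-19, Y43F8B.2, T28F4.1, C15F1.5, dhc-4, spop-1, ccch-1 and Y57G11C.22. Their pooled signals and those of the hosts above ran from 30.3 to 85.98, against a median of 21.3 over all 309 regions and a lowest value of 19.044.

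At the threshold the regions differed little in signal. The 3 last ones inside were in mdt-26, cpna-5 and pelo-1, with pooled signals of 19.056, 19.048 and 19.044, and each had a region in only 1 replicate. The 3 first ones outside were in srbc-40, dos-2 and C54G6.3, with 19.035, 19.029 and 19.026, and the first and last of these were listed in both replicates.

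Several genes held more than one strong region. The 309 regions lay in 269 host genes, of which 236 held 1, 28 held 2, 3 held 3 and 2 held 4. In pkg-2, a predicted cGMP-dependent protein kinase gene, 4 regions lay in 2 introns over 7257 bp, and all of them had a region in both replicates. Their signals were 12.02, 17.1, 14.7 and 12.4 in replicate 1, and 23.1, 18.2, 11.9 and 6.51 in replicate 2, in the order of their pooled signal. The order of the 4 therefore differed between replicates, with the region at chrIV:8529148 lowest in replicate 1 and highest in replicate 2.

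In zfp-1, 4 regions lay in 2 introns over 6340 bp. The 2 strongest had signals of 31.1 and 24.5 in replicate 1, and 23.8 and 12.6 in replicate 2. The other two had 14.996 and 20.03 in replicate 1, and no region in replicate 2 within 100 bp. All 4 of the zfp-1 windows held GAGAG within 50 bp of the summit, whereas 1 of the 4 in pkg-2 did. The 3 regions of pqn-41 shared an intron of 7776 bp, the first of 1 of its transcripts but well inside the gene. They had 29.5, 22.7 and 13.8 in replicate 1, and 33.5, 11.2 and 9.15 in replicate 2, the same order in both. In fkh-7, 2 regions lay in the first intron of 16465 bp and 1 in the fourth, with 11.9, 14.8 and 10.7 in replicate 1, and 19.03, 9.91 and 11.7 in replicate 2. Of the 3 regions of sue-1, 2 lay in its first intron and overlapped each other. Next in summed signal among genes with 2 regions were Y111B2A.12, lin-42, nhr-19, Y43F8B.2 and mnk-1. Both regions of nhr-19, a nuclear hormone receptor gene, lay in its second intron and ranked among the 2000 highest of both replicates, with 12.1 and 12.7 in replicate 1, and 18.4 and 13.98 in replicate 2. With summits within 500 bp of each other merged, 307 regions remained. Regions of 1 gene share its sequence context, so they are not independent of each other.

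The hosts were long genes. Their chromosomes took shares near those of intronic sequence: 23.9% of the regions were on I, 14.9% on II, 16.5% on III, 22.3% on IV and 22.3% on V, against 22.6%, 16.6%, 19.99%, 20.01% and 20.8% of the positions placed every 200 bp under the same annotation rule. The median length of the 269 hosts was 7992 bp, against 2610 bp over the 12234 eligible genes, which were autosomal protein-coding genes with at least 1 intronic position satisfying the same annotation rule. Of the eligible genes 2.2% were hosts. Hosts longer than 10 kb made up 37.9% (102 of 269), and 6.91% of eligible genes (845 of 12234) were that long. A longer gene offers more intronic sequence, and with each region or position counted, the median host lengths were closer. They were 8600 bp for the strong regions, 7676 bp for regions of lower rank and 7457 bp for the positions, all under the same annotation rule. Each gene list below is therefore given with the median length of its eligible genes. A strong region within 500 bp of one of its own starts was also found for 19 hosts (7.06%), and for 432 eligible genes (3.53%).

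First introns held a larger share of the strong regions than of weaker ones. Of the 309 regions, 83 (26.9%, exact 95% binomial interval 22 to 32%) lay in a first intron. The share was 18.7% (17.7 to 19.7%) among the 5871 regions of lower rank, 2001 to 30000, that met the same annotation rule. It was 17.4% of 107860 positions placed every 200 bp along the autosomes under that rule, a measure of how intronic sequence is divided. The shares of second introns were 18.8%, 14.5% and 14.9% in the strong regions, the lower-ranked regions and the grid. Introns after the second held 54.4% of the strong regions, 66.7% of the lower-ranked ones and 67.7% of grid positions, and last introns 8.41%, 15.4% and 17.1%. The host intron was the shortest annotated intron holding the summit, with its order counted in the transcript of longest span that has it. A first intron by that count need not be the first of the gene. By a wider definition, 36.2% of the regions lay in the first intron of at least 1 transcript of the gene. That share was not counted for lower-ranked regions or the grid, so it cannot be set against the shares above.

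The introns were also long. Their median length was 1602 bp, with quartiles of 569 and 4761 bp, against 897 bp for the lower-ranked regions and 1017 bp for the grid. Introns over 5 kb held 23.9% (19.3 to 29.1%) of the strong regions, 13.9% of the lower-ranked ones and 12.8% of grid positions. Introns of 100 bp or less held 3.88% (2.02 to 6.69%), against 8.19% and 7.67%. The higher share of first introns was found among introns over 1 kb and up to 5 kb, where 45 regions (43.3%, 33.6 to 53.3%) were in a first intron, against 25.99% of lower-ranked regions and 21.8% of grid positions. In introns over 5 kb the shares were 40.5% (29.3 to 52.6%), 46.2% and 42.9%, and in introns of 1 kb or less they were 6.11%, 7.22% and 7.40%. When replicate 1 alone chose the regions, 24.8% were in first introns and the median intron was 1243 bp; when replicate 2 alone did, the values were 21.4% and 914 bp, a length near the 897 bp of the lower-ranked regions. Binomial intervals cover the number of regions only, not the spread between animals.

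**Figure D2:**
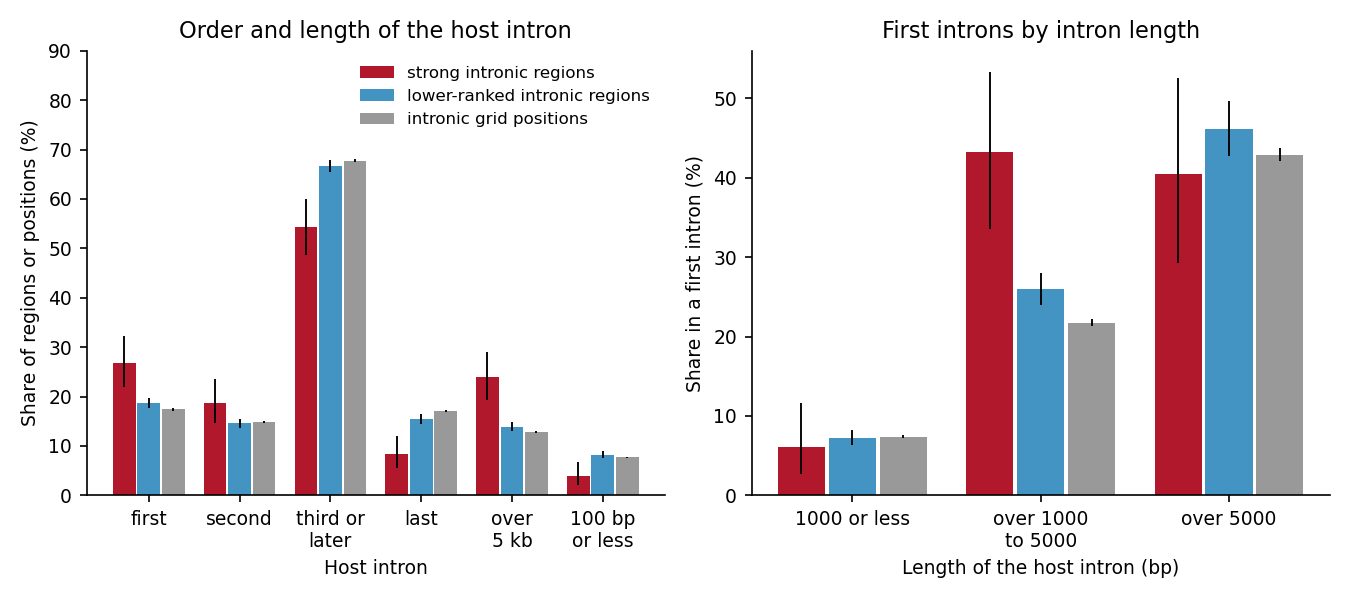
Left, shares of the 309 strong intronic regions, the 5871 lower-ranked intronic regions and 107860 intronic grid positions by order and length of the host intron. Right, the share in a first intron by intron length; bars are percentages and lines exact 95% binomial intervals, and the strong regions stand above the others in first introns over 1 kb and up to 5 kb.

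The median summit was 48.8% of the way from the donor to the acceptor splice site, and the lower-ranked regions and the grid each had a median of 50.9%. The lower quartile of the distance was 245 bp to the donor and 214 bp to the acceptor, and the closest summits lay 4 bp from the donor in ZC123.1 and 6 bp from the acceptor in rbm-12. The nearest protein-coding start was a median of 1676 bp away, against 1627 bp for lower-ranked regions and 1710 bp for the grid. For 41 regions that start belonged to another gene. The 3 longest host introns were those of kcc-2 (21046 bp), which encodes a potassium-chloride cotransporter, hmr-1 (18310 bp), the classical cadherin, and T28B11.1 (17091 bp). The kcc-2 region had 9.39 in replicate 1 and no region in replicate 2, and the hmr-1 region had no match in replicate 1 and 12.6 in replicate 2. The second region of T28B11.1 had no match in replicate 1 and 18.6 in replicate 2. The 3 shortest were in ZC123.1 (43 bp), K09D9.14 (46 bp) and chs-1 (48 bp), a chitin synthase gene. Only K09D9.14 of these had a region in both replicates, with 12.98 in replicate 1 and 13.8 in replicate 2. Nearly every region of the pooled list has the same width, which exceeds such introns, and extends into the exons beside them.

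About as many of the intronic regions as of all strong regions were found in both replicates. A region of both replicates within 100 bp of the summit was found for 184 of 309, or 59.5% (53.8 to 65.1%). The same held for 61.5% of the 2000 highest regions and for 13.9% of the whole pooled list, so the intronic share was near that of the 2000. Replicate 1 alone had a region for 53 (17.2%), replicate 2 alone for 68 (22%), and neither for 4. Of the 72 without a match in replicate 1, 36 had a region of replicate 1 within the width of a region, and of the 57 without one in replicate 2, 34 did. Only 26 regions (8.41%, 5.57 to 12.1%) were among the 2000 highest of both replicates, against 10.6% of the 2000 highest. The replicates are part of the pooled signal that chose the regions, so these shares describe the choice and support nothing further. The pooled list is labelled as peaks and background, and replicate matches can rank low, as in ges-1, at 29738 in replicate 1. A match is thus a listed region of any rank and need not be a peak.

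The share with a match in both replicates was higher among regions of higher pooled signal, a signal that the replicates make up. Among the 25 strongest regions 23 had a match in both replicates and 18 were in the 2000 highest of both. Of regions 101 to 200, 52 of 100 had a match in both and 1 was in the 2000 highest of both. Of the last 109 by pooled signal, 54 had a match in both and 0 were in the 2000 highest of both, a place that a region of low pooled signal can hardly reach. Beyond the first 25, the regions in the 2000 highest of both were in daf-16, C34B4.2, K09D9.14, nhr-19, aakg-1, Y106G6D.6, shc-2 and unc-76. The 26 lay in longer introns, with a median of 4213 bp.

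**Figure D3:**
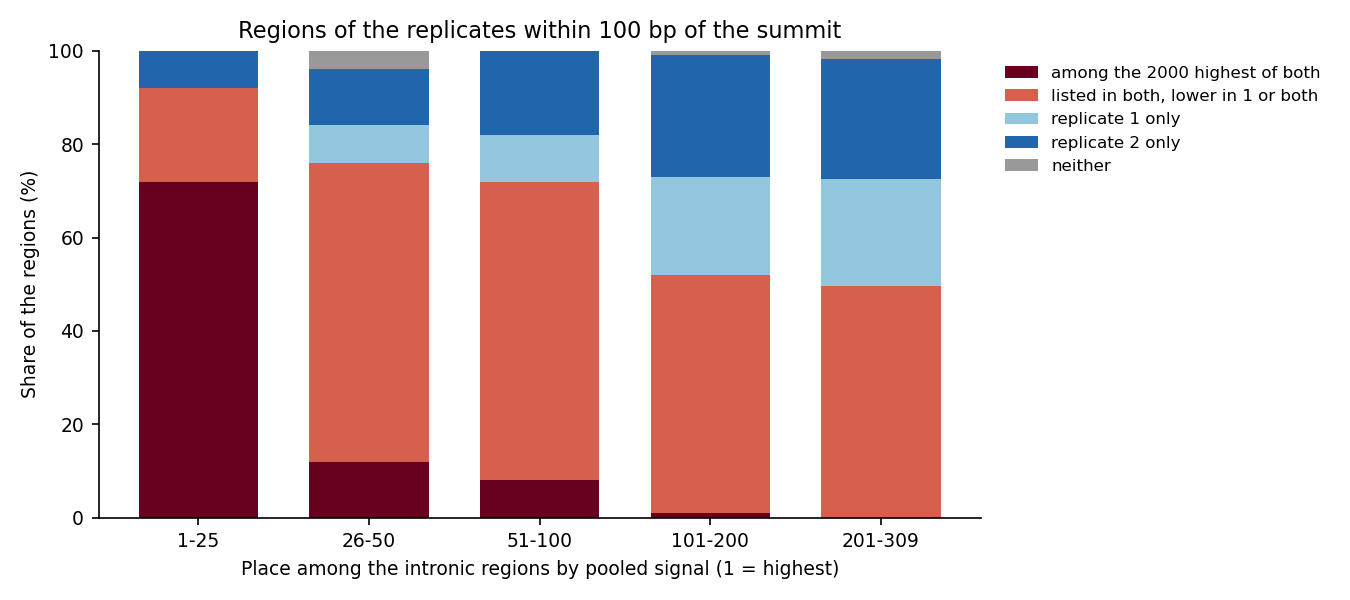
Share of the intronic regions (%), in groups by their place in pooled signal, that had a region of each replicate within 100 bp of the summit. The share among the 2000 highest of both replicates was 72% for the first 25 and 0% for the last 109.

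Where both replicates had a region, their signals had medians of 10.1 in replicate 1 and 10.9 in replicate 2. Replicate 1 over replicate 2, on the log2 scale, had a median of -0.13 and an SD of 0.70 over 184 regions, and ran from -1.80 to 1.75. Replicate 1 was over 2-fold higher in 10 (5.43%) and replicate 2 in 22 (11.96%). Over the 1231 of the 2000 highest with a match in both, the shares were 3.82% and 15.6%. Across the 184 regions, Pearson's r between the log2 signals was 0.11 and Spearman's rank correlation -0.11, a description only, since all were called in the same 2 libraries and were selected on the pooled signal. Without the IDR peaks, r was -0.35 over 168 regions. Over the 1231 of the 2000 highest, r was 0.35 and the rank correlation 0.02, with a median log2 ratio of -0.22 and an SD of 0.71. In the other classes of the 2000, r ran from 0.25 in autosomal intergenic regions to 0.48 on chromosome X, above the 0.11 of the intronic regions. Their rank correlations were low as well, from -0.09 in autosomal exons to 0.11 on chromosome X. The SDs of their log2 ratios, 0.70 to 0.74, were near the 0.70 of the intronic regions.

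The largest ratio in favour of replicate 1 was that of ulp-4, 3.37-fold. In favour of replicate 2, the regions of pgph-2 and sptf-1 differed more, by 3.49-fold and 3.38-fold. In saeg-1, a gene named for suppressing an activated egl-4 kinase, the region had 19.4 in replicate 1 and 6.47 in replicate 2, and in anoh-2, an anoctamin gene, 17.3 in replicate 1 and 6.05 in replicate 2. At the other end, with replicate 1 before replicate 2, were pgph-2 with 4.89 and 17.1, sptf-1, an SP-type zinc finger gene, with 5.24 and 17.7, and ges-1, the gut esterase gene, with 4.81 and 15.99. The lowest signals of the whole lists were 4.79 in replicate 1 and 5.80 in replicate 2. The lower values of these regions, except that of ulp-4, were thus near the floor of their list. The strongest regions with no match in replicate 1 were in mnk-1, spop-1, which encodes a substrate adaptor of a ubiquitin ligase, and sorb-1, with 30.2, 25.8 and 18.3 in replicate 2. Those with no match in replicate 2 were in K11D2.4, cct-5, a chaperonin subunit gene, and zfp-1, with 16.1, 12.5 and 14.996 in replicate 1. The strongest with a match in neither was in cye-1, the cyclin E gene, with a pooled signal of 28.3, followed by Y105C5B.3 and unc-82.

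**Figure D4:**
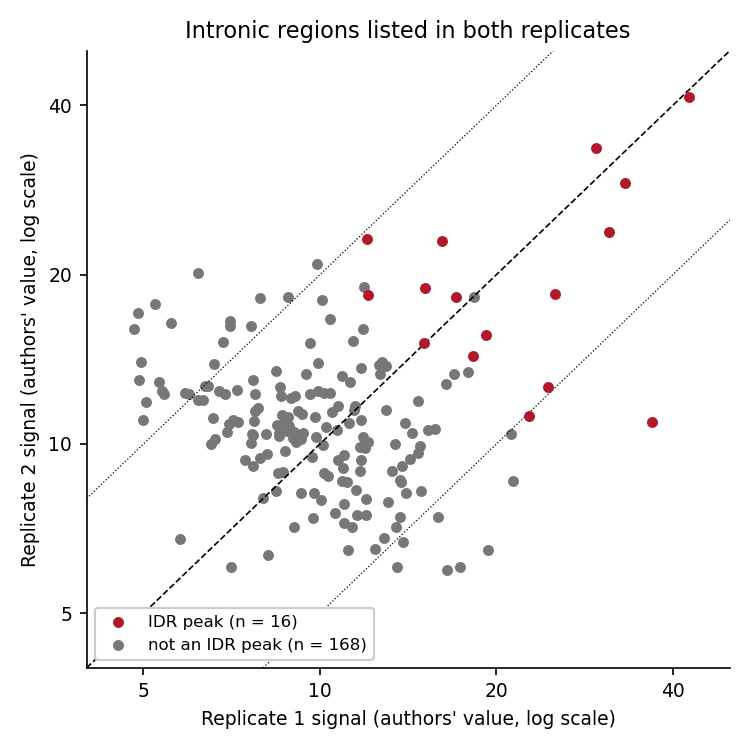
Signal of the 184 intronic regions listed in both replicates, replicate 1 on the horizontal and replicate 2 on the vertical axis, both on log scales; the dashed line marks equal signal and the dotted lines a 2-fold difference. The 16 IDR peaks reach the highest values and 32 regions differ by over 2-fold.

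The 309 intronic regions were 20.4% of the 1516 autosomal regions among the 2000 highest. Of 150 IDR peaks in all, 107 were on autosomes and 17 were among the intronic regions, no higher a share of the 107. They were the 17 regions of highest signal, in Y111B2A.12, pqn-41 (2), lin-42, zfp-1 (2), ulp-4, Y71G12B.31, C54G6.3, pkg-2 (2), mnk-1, Y43F8C.7, nhr-19, Y43F8B.2, T28F4.1 and C15F1.5. Of these, 16 had a region in both replicates and 13 were in the 2000 highest of both. The IDR list is itself made from the ranks in the replicates, so these counts describe that choice. Median signals of the 16 were 20.9 in replicate 1 and 18.5 in replicate 2.

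Genes for structured RNAs stood beside a small group of the regions. A snoRNA, snRNA, tRNA, microRNA or rRNA gene lay within 100 bp of the summit for 10 regions (3.24%, 1.56 to 5.87%), against 0.22% of lower-ranked regions and 0.23% of grid positions. Within 500 bp there were 14 (4.53%, 2.50 to 7.49%), against 0.90% and 0.93%. The rule keeps summits out of exons of every annotated gene, so none of the summits lay inside such an RNA. Of the 14, 8 were among the 50 strongest regions, 0 were among regions 51 to 100, 1 among regions 101 to 200, and 5 among the last 109. The region in ulp-4, with 36.9 in replicate 1 and 10.9 in replicate 2, lay 7 bp from the snoRNA gene C41C4.16. In Y43F8C.7 the region lay 26 bp from the snoRNA gene Y43F8C.22 and had 15.1 in replicate 1 and 18.9 in replicate 2. In C15F1.5 it lay 25 bp from sup-39, an snRNA gene in the annotation, and had 15.1 in each replicate.

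In dhc-4, a dynein heavy chain gene, the region lay 23 bp from the snRNA gene W05B2.8 and had 21.2 in replicate 1 and 10.4 in replicate 2. The cye-1 region lay 25 bp from a tRNA gene. The K01F9.2 region lay 60 bp from the microRNA gene mir-90, with 6.19 in replicate 1 and 20.1 in replicate 2. These 6 regions thus ranged from equal signals to a more than 3-fold difference between replicates, or had no match in either. Of the 14 regions, 7 had a match in both replicates. Genes of any noncoding class, including short RNAs of no stated class and piRNAs (21U-RNAs, made in the germline), lay within 500 bp of 61 regions (19.7%, 15.5 to 24.6%), against 11.5% of lower-ranked regions and 9.80% of the grid. For piRNA genes alone the shares were 8.09%, 5.996% and 4.75%. A whole-animal signal beside an intronic RNA gene cannot be told apart from a signal at the host gene.

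**Figure D5:**
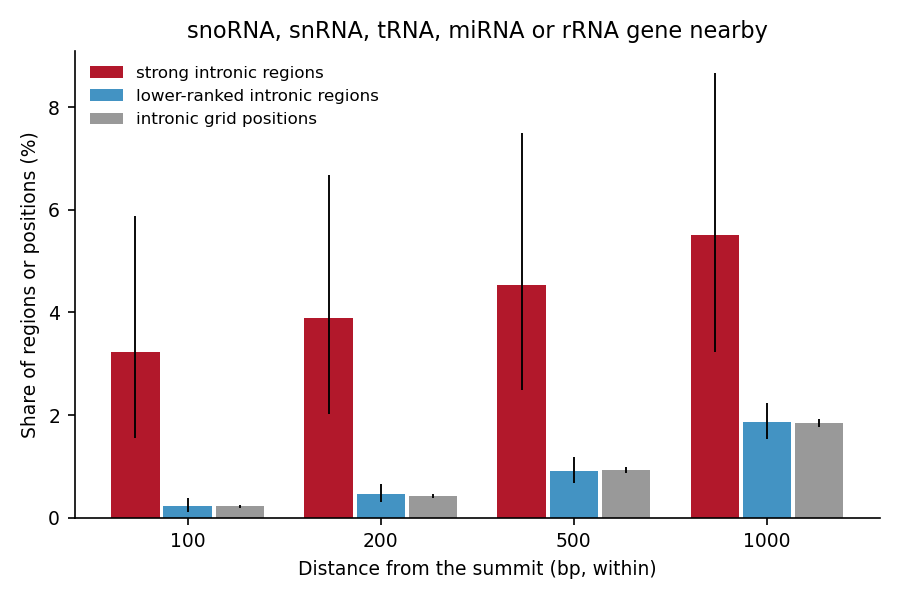
Share (%) of the 309 strong intronic regions, 5871 lower-ranked intronic regions and 107860 intronic grid positions with a snoRNA, snRNA, tRNA, microRNA or rRNA gene within 100, 200, 500 or 1000 bp; lines are exact 95% binomial intervals. The strong regions are highest at each distance, with 3.24% within 100 bp and 5.502% within 1000 bp.

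Short sequence motifs were counted on both strands within 50 bp of each summit. GAGAG was found in 65 regions (21%, 17 to 26%). It was found in 14.2% of windows 500 bp away, 10.7% of lower-ranked intronic regions, 13.2% of the pooled list and 21.8% of the 2000 highest regions. AGTGTG was found in 26 (8.41%, 5.57 to 12.1%), against 3.24% of windows 500 bp away, 2.66% of lower-ranked regions and 5.25% of the 2000 highest. AGTGCA was found in 6.15%, 5.18%, 3.01% and 5.85% of these sets in the same order, and AGTACA in 5.50%, 2.27%, 3.47% and 5.20%. AGTGCG was found in 2.27%, 1.62%, 1.11% and 3.25%. At least 1 of the 4 hexamers was present in 59 regions (19.1%, 14.9 to 23.9%), against 12.3% of windows 500 bp away, 9.91% of lower-ranked regions and 17.6% of the 2000 highest. Thus 250 of 309 regions held none of the 4 in the window, those in Y111B2A.12 and pqn-41 included.

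Of the other sequences counted, AGTTCA was found in 3.24%, AGGTCA in 1.94% and AGGACA in 2.91% of the regions, and in 4.53%, 2.27% and 2.59% of the windows 500 bp away. TTATCA, the core of the GATA factor site on one strand, was found in 9.06% and 9.39%. In the 26 regions in the 2000 highest of both replicates, GAGAG was present in 11 (42.3%, 23.4 to 63.1%) and at least 1 of the 4 hexamers in 9 (34.6%, 17.2 to 55.7%). Base composition differed along with these counts: the GC content of the windows averaged 46.1% in those 26 regions and 34.7% in the other 283. It averaged 35.7% in all 309, 36.5% in windows 500 bp away and 31.7% in lower-ranked regions. The part of the GC content in the motif shares was not tested.

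The windows were almost all of single-copy sequence. In 2 of 309 the median 24-base stretch occurred more than once in the genome (0.65%), in nsun-2 and in arp-1, where the median stretch occurred 37 times. The share was 2.27% in windows 500 bp away and 1.94% in lower-ranked regions. The longest stretch that any 2 of the windows had in common was 17 bp. Bases soft-masked as repeats or low complexity in the RefSeq genome made up 36.1% of the windows on average, 32.4% of windows 500 bp away and 50.3% of lower-ranked regions.

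Genes of the dauer pathways were among the hosts. Of 17 eligible genes of insulin and TGF-beta dauer signalling, 4 were hosts (23.5%), against 2.2% of all eligible genes. The median length of the 17 was 5167 bp, against 2610 bp. The strongest region in daf-16, the FOXO transcription factor gene of insulin signalling, had 12.7 in replicate 1 and 13.3 in replicate 2. In daf-2, the insulin receptor gene, the region in the second intron had 8.41 in replicate 1 and 13.5 in replicate 2. In daf-5, which encodes a Sno/Ski family partner of the TGF-beta pathway's Smads, it had 13.4 in replicate 1 and 10.02 in replicate 2. The region in daf-14, a Smad gene, had no match in replicate 1 and 6.95 in replicate 2. Thus 3 of these 4 genes had a region in both replicates, as had 59.5% of the 309 regions and 61.5% of the 2000 highest. Only the daf-16 region ranked among the 2000 highest of both. Of 7 genes of dafachronic acid and sterol function, with a median length of 4266 bp, 1 was a host: din-1, the DAF-12 corepressor gene, had no region in replicate 1 and 16.1 in replicate 2. Of 12 heterochronic genes, which order larval cell fates in time and had a median length of 6680.5 bp, 1 was a host, lin-42. Its second region, in the eighth intron, had 13.3 in replicate 1 and 8.95 in replicate 2.

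Nuclear hormone receptor genes were hosts in 5 of 222 cases (2.25%), near the 2.2% of all eligible genes, and had a median length of 2322 bp. These were nhr-19, described above, nhr-34, nhr-41, nhr-46 and nhr-105. In nhr-41 the region had 8.85 in replicate 1 and 10.8 in replicate 2, and in nhr-105 it had 11.98 in replicate 1 and 7.49 in replicate 2. The region in nhr-34 had no match in replicate 1 and 17.1 in replicate 2, and that in nhr-46 had 14.8 in replicate 1 and no match in replicate 2. Of 33 homeobox genes, with a median length of 4082 bp, 3 were hosts (9.09%, against 2.2%). In lin-39, the Hox gene of the mid-body, the region had 9.78 in replicate 1 and 8.19 in replicate 2. In ceh-16, the engrailed gene of the epidermal seam, it had 9.68 and 9.49, and in pax-3 it had 7.89 and 18.2, replicate 1 first. The homeobox genes ceh-2 and ttx-1 were also hosts, but the list did not hold them, and they were named after their values were seen. Of 26 Wnt signalling genes, with a median length of 4598 bp, the only host was cam-1, a Ror receptor tyrosine kinase gene, with 7.24 in replicate 1 and 10.9 in replicate 2.

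The lists for tissues and other gene classes held 0 to 4 hosts each, beside a share of 2.2% over all eligible genes and their median length of 2610 bp. Among neuronal and synaptic genes (median length 7513 bp) 4 of 27 were hosts (14.8%), unc-13, ric-4, ida-1 and unc-76, which act in vesicle priming, vesicle fusion, dense-core vesicles and axon growth. Only unc-76 of these ranked among the 2000 highest of both replicates, with 11.8 in replicate 1 and 16.03 in replicate 2. Of intestine and fat genes (median 3688 bp) 3 of 21 were hosts (14.3%), ges-1, erm-1 and hlh-30, the last a regulator of autophagy and lysosomal genes with 14.7 in replicate 1 and 9.64 in replicate 2. Ion channel and transporter genes (median 9957.5 bp) gave 2 of 34 (5.88%), nca-2 and unc-80, which act in sodium leak channels. Another sodium leak channel gene, unc-77, was also a host, with 8.92 in replicate 1 and 12.1 in replicate 2. The list held it under the name nca-1, which was not matched, and it was named after its values were seen. Other channel or transporter genes among the hosts, such as kcnl-1, twk-2, twk-13, egl-23, pezo-1, glc-3, avr-15, kcc-2 and mca-1, were not on the list and were likewise named afterwards. Epidermal, seam and moulting genes, with a median length of 5373 bp, gave 2 of 31 (ceh-16 and hmr-1). Body wall muscle genes, with 6585.5 bp, gave 1 of 22 (dys-1, dystrophin), and axon guidance and cell migration genes, with 13936 bp, gave 1 of 31 (mig-10). Germline and cell cycle genes, with 3460 bp, gave 1 of 25 (cye-1). The list of chromatin and general transcription genes, with 7809 bp, gave 0 of 25, and it did not hold zfp-1, let-526 or pbrm-1, described above. The lists hold chosen genes and not whole classes, so their counts leave out other hosts of the same kind. No list was tested, since the lists were chosen with results of these data known and the lengths of their genes differ.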

How the data were processed

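The deposited lists give regions called from alignments with a control alignment, per the deposited notes, for each replicate and for both pooled, in ce11. The caller, the aligner, their versions and the IDR cutoff are not given in the sources used here. Each region carries 1 signal value, as deposited, by which regions were ranked and compared. The pooled list is labelled as peaks and background given as input for the IDR. The ce10 lists were left out. Samples were grouped by the strain label, with replicate numbers from the labels.

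Members and gene lists were chosen with earlier results of these data known. Members were found with Python 3.11.15, numpy 2.4.6 and the Ensembl release 115 annotation of WBcel235. Symbols and noncoding classes were checked against RefSeq, and 3 hosts have another name in Ensembl. A region of a replicate matched within 100 bp of the pooled summit. Shares carry exact (Clopper-Pearson) 95% intervals (scipy 1.17.1), which cover counting of regions only; no test was run. Named were the hosts of the 25 strongest members, IDR peaks, members at the threshold, at the extremes of ratio and intron length or without a replicate, genes with several members, listed genes and members beside RNA genes. The counts of sequence copies and of first introns by length were added after the data were seen. The result of another gene list is not reported here. The intron and matching functions were tested on simulated data. Plots were made with matplotlib 3.10.9. Alternatives are given in the closing section.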

Additional observations from a re-analysis of the deposited data

How the results depend on the processing

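The number of members depends on the rule: it was 228 over 1000 bp from a start, 435 with no minimum distance, 251 with starts of every biotype counted, and 347 or 341 when replicate 1 or replicate 2 alone chose the regions. Taking the 1000 highest regions left 145 members with a median intron of 2655 bp. Of these, 69.0% had both replicates, 17.2% were in the 2000 highest of both and 27.6% held GAGAG. Where both replicates had a match, their median log2 ratio was 0.028, against -0.13 over the 184 such regions of the 309. The 95% interval of the latter, -0.25 to -0.0039, covers the number of regions only, not the spread between animals. With no minimum distance from a start 36.1% lay in first introns. With starts of every biotype counted, 1.59% lay within 500 bp of a noncoding RNA gene, since that rule removes regions beside RNA genes. When 1 replicate alone chose the regions, without replicate 1 or without replicate 2, 17.3 to 23.6% had both replicates, the SD of the log2 ratio was 0.54 to 0.64 (0.70 with both), first introns held 21.4 to 24.8%, and the median intron was 914 to 1243 bp; the median log2 ratio was 0.47 with replicate 1 alone and -0.68 with replicate 2 alone. Matching within 50 bp gave both replicates for 39.5% and within 200 bp for 76.1%. The share in the highest of both was 3.88% with the 1000 highest of each replicate and 17.2% with the 5000 highest. GAGAG was found in 11% within 25 bp and 34.6% within 100 bp. A noncoding RNA gene lay within 200 bp of 13.3% and within 1000 bp of 27.8%. Among settings chosen only later, with the data in view, the 26 members in the 2000 highest of both replicates had an SD of 0.37, a median intron of 4213 bp, GAGAG in 42.3% and a noncoding RNA gene within 500 bp in 34.6%. Leaving out the 14 members beside structured RNA genes, also added later, left 295 and kept each of the other values within its 95% interval. When 1 replicate alone chose the regions, each had a match in that replicate by construction. The share with both then counts matches in the other replicate only. The median log2 ratio is drawn towards the replicate that chose, also by construction. Apart from such effects of the choice of members, the cause of the shifts was not tested. No paired analysis was possible because there is 1 group. With 2 replicates and no read counts, the error of a single region's signal is known only from the difference between them.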
